A study of Homo sapiens with 16 samples.

Results

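The genes of 6 RNA-binding proteins were followed through all 16 libraries: ZFP36, ZFP36L1, ZFP36L2, ELAVL1, HNRNPD and KHSRP, which are the members of the ZFP36 family and the best known other proteins that bind AU-rich elements in mRNA. The rule took them by gene symbol, although the set was chosen with earlier results of these data known, and all 6 were found among the 23354 genes of the count table and passed the filter on low counts. MM1S and MM1R are human multiple myeloma cell lines grown in culture. MM1S is sensitive to the glucocorticoid dexamethasone (Dex) and MM1R is its resistant counterpart. Each line was treated with vehicle, with 0.1 μM TAK-981, an inhibitor of the enzyme that activates the small protein modifier SUMO, with 1 μM Dex, or with both agents together (combo). Treatment lasted 48 h. Each of the 8 groups held 2 libraries of total RNA depleted of ribosomal RNA, and each line is a single established line, so the comparison of MM1R with MM1S is a comparison of these particular lines.

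AU-rich elements are runs of A and U in the 3' untranslated region (UTR) of short-lived mRNAs such as those of cytokines, cyclins and immediate early genes. The zinc finger proteins ZFP36 (tristetraprolin, TTP), ZFP36L1 and ZFP36L2 bind such elements and recruit the CCR4-NOT complex, which shortens the poly(A) tail and starts decay of the mRNA. ELAVL1 (HuR) binds overlapping elements and is known mostly for stabilizing the mRNAs it holds. HNRNPD (AUF1) and KHSRP (KSRP) are mostly linked to decay, KHSRP through the exosome and deadenylases, although HNRNPD can also stabilize some targets. In lymphoid cells ZFP36L1 and ZFP36L2 restrain proliferation during lymphocyte development, and ZFP36 limits inflammatory cytokines in myeloid cells. ZFP36 activity is also held down by the p38 and MK2 kinases, whose phosphorylation of the protein favours binding by 14-3-3 proteins.

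In the table's build, hg19, ZFP36 lies at chr19:39897487-39900052 on the plus strand. ZFP36L1 lies at chr14:69254372-69262960, ZFP36L2 at chr2:43449541-43453745, ELAVL1 at chr19:8023457-8070529, HNRNPD at chr4:83274467-83295149 and KHSRP at chr19:6413119-6424822, all on the minus strand. No other gene of the table overlaps 5 of them. The interval of KHSRP also holds the miRNA gene MIR3940, which had at most 1 count in any library.

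The mRNAs of 4 of these binding proteins themselves carry the core of the AU-rich element, the heptamer TATTTAT in DNA letters. In GENCODE 29 transcripts the 3' UTR of ZFP36 (713 bases), ZFP36L1 (1871 bases) and ZFP36L2 (1917 bases) each held 3 copies and that of ELAVL1 (4904 bases) held 5, counting overlapping copies on the transcript strand only. The 3' UTRs of HNRNPD (1687 bases) and KHSRP (764 bases) held none. Of 19053 annotated 3' UTRs, 27.7% held at least 1 copy. The 30-base windows below are shown because they place these genes among the mRNAs that carry the element their proteins read. Each is the first stretch with the most copies in its 3' UTR, on GRCh38, 5' to 3' on the transcript strand, with the heptamer in capitals. For ZFP36L1 and ZFP36L2 no such stretch held more than 1 of the 3 copies, and the first copy is shown.
ZFP36, chr19:39409188-39409217, plus strand: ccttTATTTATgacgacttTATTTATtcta
ZFP36L1, chr14:68788336-68788365, minus strand: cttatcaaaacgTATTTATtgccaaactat
ZFP36L2, chr2:43223448-43223477, minus strand: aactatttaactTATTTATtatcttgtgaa
ELAVL1, chr19:7961839-7961868, minus strand: tTATTTATaccTATTTATgTATTTATTTAT

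The study also asked whether the miRNA miR-551b acts on ZFP36. The mature hsa-miR-551b-3p is shown with its seed, bases 2 to 8, in capitals (RefSeq, GRCh38.p14, chr3:168551914-168551934, plus strand), followed by the window of the ZFP36 3' UTR that holds the complement of that seed, TGGGTCG, in capitals (GRCh38, chr19:39409233-39409262). It lies downstream of the ZFP36 heptamer window above. Of the 19053 3' UTRs, 1.28% held this match, and none of the other 5 members did. The match is a description of the sequence, and the mature miRNA is not measured in these libraries.
hsa-miR-551b-3p: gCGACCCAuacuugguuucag
ZFP36 seed match: atttatatatatTGGGTCGtctgcttccct

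Total counts per library ran from 15707587 to 24796539. Nothing in the labels says whether the 2 libraries of a group came from separate cultures, so p-values measure only the spread between these libraries. The fit pools that spread over the 8 groups, and a pooled spread can be too small for the groups whose libraries differ most. The pairs of libraries in every group differed by more than sampling noise (their chi-square over genes, divided by its degrees of freedom, was between 2.11 and 21.7, highest in MM1S with TAK-981). The labelled cell type was checked against markers: SDC1, TNFRSF17, SLAMF7, PRDM1, XBP1, IRF4, MZB1, JCHAIN, MAF and CCND2 each stood at 146 CPM or more in every library, while CD38 ran from 6.74 to 44.9 CPM. CPM are counts scaled to a common library size after TMM normalization. Of 19 genes that mark B cells, T cells, monocytes or epithelial and stromal cells, 17 stayed at or under 3.76 CPM. The exceptions were CD68 (up to 37.9 CPM) and CD3E (up to 5.33 CPM).

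In vehicle-treated MM1S cells HNRNPD was the highest and ZFP36L1 the lowest of the 6 mRNAs per kb of the gene length given in the table. Levels per kb were 102 ± 0.303 for HNRNPD, 84.2 ± 0.840 for KHSRP, 80.5 ± 1.83 for ZFP36L2, 78.5 ± 4.18 for ZFP36, 25.9 ± 0.0726 for ELAVL1 and 8.38 ± 0.0604 for ZFP36L1 (CPM per kb, mean ± SD, n = 2). ZFP36L2 and ZFP36 stood within the spread of their libraries of each other. In vehicle-treated MM1R cells the order was HNRNPD (122 ± 0.447), KHSRP (116 ± 2.51), ZFP36 (79.2 ± 1.48), ZFP36L2 (77.7 ± 0.0274), ELAVL1 (32.6 ± 0.837) and ZFP36L1 (7.10 ± 0.00758 CPM per kb, SD, n = 2). With the longest annotated transcript as the length, HNRNPD in MM1S vehicle moved to 62.2 CPM per kb, behind KHSRP, ZFP36L2 and ZFP36, and in MM1R vehicle to 74.0, also behind these 3. Among the 14215 genes tested, ZFP36L2 had a higher CPM than 96.5% in MM1S vehicle, and ZFP36L1 than 58.1%.

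TAK-981 moved 5 of the 6 mRNAs in the same direction in both lines: ZFP36 and ZFP36L2 rose, ELAVL1, HNRNPD and KHSRP fell, and ZFP36L1 did not pass the test. The counts are 2 higher and 3 lower of 6 in each line, beside 25.2% higher and 23.7% lower of all genes tested in MM1S (49.0% in either direction) and 25.8% and 27.6% in MM1R (53.4%). The median log2 fold change over the 6 was −0.14 in MM1S and −0.12 in MM1R, beside 0.04 and 0.00 over all genes. The lines differed most at ZFP36, which rose 1.46-fold in MM1S and 2.46-fold in MM1R.

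**Figure D1:**
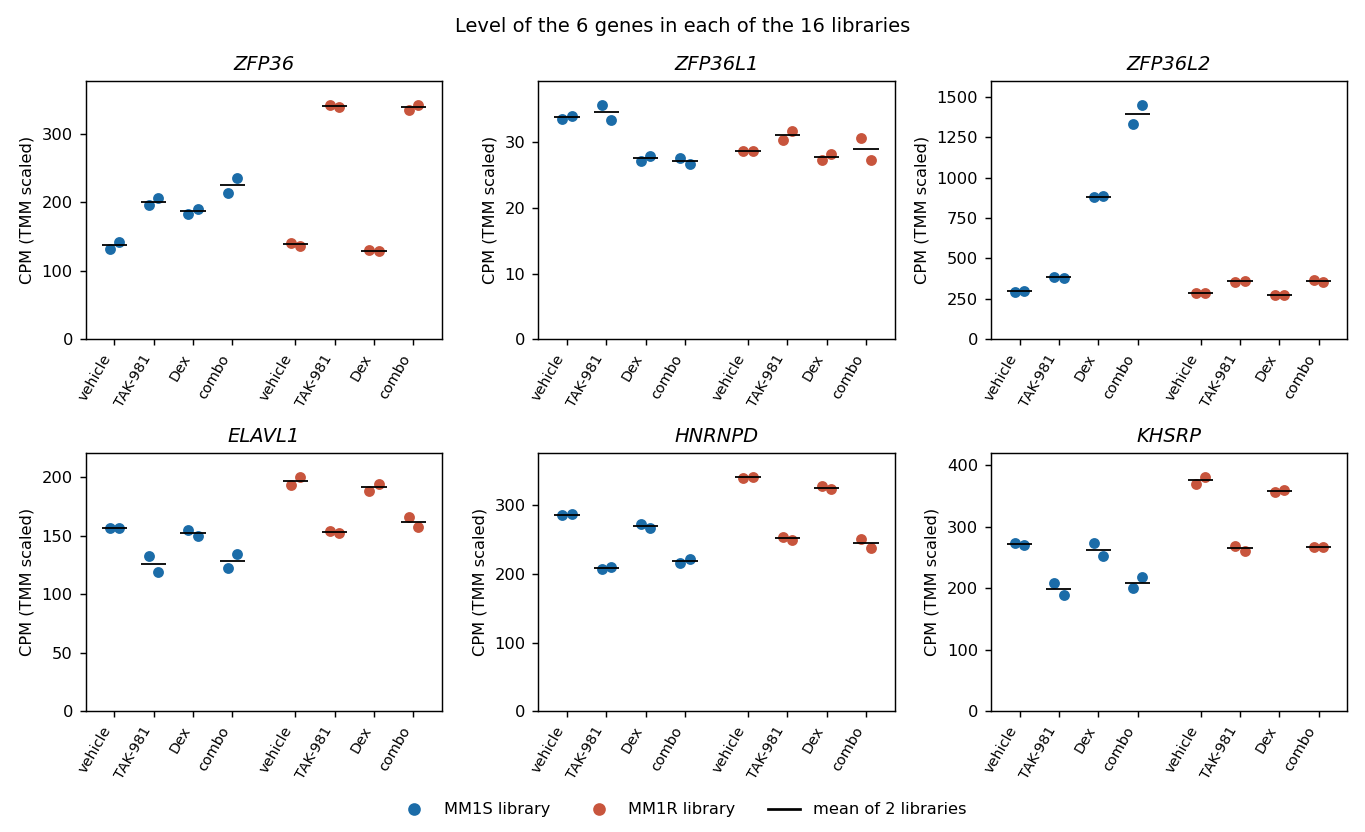
Level of ZFP36, ZFP36L1, ZFP36L2, ELAVL1, HNRNPD and KHSRP in CPM (vertical axes from 0, 1 scale per gene) for the 4 treatments of MM1S (blue) and MM1R (red). Each point is 1 library and each black line the mean of the 2 libraries. ZFP36 is highest in MM1R with TAK-981 or combo (335 to 343 CPM), ZFP36L2 in MM1S with combo (1331 and 1452 CPM), and ELAVL1, HNRNPD and KHSRP are lower with TAK-981 or combo than with vehicle in both lines.

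ZFP36 stood at 132 and 142 CPM in the vehicle libraries of MM1S and at 196 and 206 CPM with TAK-981. In MM1R it was at 140 and 137 CPM with vehicle and at 342 and 340 CPM with TAK-981. In each line the TAK-981 libraries were higher than either vehicle library, and the 2 lines overlapped with vehicle but were far apart with TAK-981. ZFP36 rose in MM1S by a log2 fold change of 0.55 (standard error 0.0609, adjusted p = 5.53e-07 by edgeR), and in MM1R by 1.30 (0.0609, adjusted p = 8.14e-12). The difference between the lines, tested as the interaction of line with TAK-981, was 0.75 (standard error 0.0856, adjusted p = 7.70e-05). By this test 4.16% of all genes were called, with 3.19% of all genes higher in MM1R, and ZFP36 was the 1 member of the 6 that passed it. In bulk RNA of a culture, more transcript in every cell and more cells that hold the transcript cannot be told apart.

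ZFP36L2 was the most abundant of the 6 by CPM in MM1S with vehicle, at 292 and 302 CPM. With TAK-981 it was at 386 and 379 CPM. In MM1R with vehicle, KHSRP (mean 376 CPM) and HNRNPD (mean 340 CPM) were more abundant than ZFP36L2. There ZFP36L2 went from 287 in both vehicle libraries to 355 and 361 CPM with TAK-981. Treated and vehicle libraries were apart in both lines. The log2 fold changes were 0.37 (standard error 0.0528, adjusted p = 1.33e-05) in MM1S and 0.32 (0.0527, adjusted p = 6.08e-05) in MM1R, and their difference was −0.05 with a 95% interval from −0.21 to 0.11. The response of ZFP36L2 to TAK-981 thus did not pass the test of a difference between the lines, which that of ZFP36 did.

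ZFP36L1, the third family gene, was at 33.6 and 34.0 CPM in MM1S with vehicle and at 35.8 and 33.5 CPM with TAK-981. Its libraries overlapped there. In MM1R it was at 28.7 in both vehicle libraries and at 30.4 and 31.8 CPM with TAK-981, which lay above them without passing the test. The log2 fold changes were 0.03 (95% interval −0.12 to 0.19, adjusted p = 0.739) in MM1S and 0.12 (−0.04 to 0.28, adjusted p = 0.208) in MM1R.

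ELAVL1, HNRNPD and KHSRP all fell with TAK-981 in both lines, with every treated library below both vehicle libraries of its line. KHSRP was at 274 and 270 CPM in MM1S with vehicle and at 208 and 190 CPM with TAK-981, and in MM1R at 370 and 382 against 269 and 261 CPM. Its log2 fold changes were −0.45 (standard error 0.0622, adjusted p = 8.03e-06) and −0.51 (0.0616, adjusted p = 1.90e-06). HNRNPD was at 285 and 286 CPM against 207 and 210 CPM in MM1S, and at 339 and 341 against 253 and 249 CPM in MM1R. Both pairs were narrow, and HNRNPD gave log2 fold changes of −0.45 (0.0517, adjusted p = 8.13e-07) and −0.44 (0.0514, adjusted p = 1.20e-06). ELAVL1, the stabilizing member, was at 157 and 156 against 133 and 119 CPM in MM1S, and at 194 and 201 against 155 and 152 CPM in MM1R. ELAVL1 fell by 19.5% in MM1S, with an adjusted p of 0.000558, and in MM1R it fell by 22.2%, with an adjusted p of 0.000110. The differences between the lines in these 3 responses were −0.05 (95% interval −0.24 to 0.14) for ELAVL1, 0.02 (−0.14 to 0.17) for HNRNPD and −0.05 (−0.24 to 0.13) for KHSRP.

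Dex acted on the ZFP36 family in MM1S in 2 directions. ZFP36L2 rose 2.97-fold and ZFP36 1.36-fold, ZFP36L1 fell by 18.4%, and ELAVL1, HNRNPD and KHSRP did not pass the test. The counts of 2 higher and 1 lower of 6 stand beside 20.8% higher and 21.5% lower of all genes (42.3% in either direction), and the median of the 6 was −0.04 beside 0.01 over all genes. Dex is an agonist of the glucocorticoid receptor, a transcription factor.

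ZFP36L2 with Dex stood at 880 and 885 CPM, above 99.4% of the genes tested, against 292 and 302 CPM with vehicle. The groups were far apart. The log2 fold change was 1.57 (standard error 0.0536, adjusted p = 7.73e-14). In MM1R, ZFP36L2 was at 274 CPM in both Dex libraries and at 287 in both vehicle libraries, a log2 fold change of −0.07 (95% interval −0.18 to 0.05, adjusted p = 1). The interaction of line with Dex for ZFP36L2 was −1.64 (standard error 0.0748, adjusted p = 1.55e-11), in a test that called 28.1% of all genes and 13.1% lower in MM1R.

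For ZFP36 the Dex libraries of MM1S were at 184 and 191 CPM, above both vehicle libraries, a log2 fold change of 0.45 (standard error 0.0609, adjusted p = 9.51e-06). In MM1R they were at 130 and 129 CPM, a little below the vehicle libraries (−0.10, 95% interval −0.23 to 0.03). The interaction of line with Dex was −0.55 (standard error 0.0861, adjusted p = 9.79e-05). ZFP36 and ZFP36L2 were the 2 members past this test.

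ZFP36L1 with Dex was at 27.2 and 28.0 CPM in MM1S, below both vehicle libraries, and its log2 fold change of −0.29 passed the test (standard error 0.0769, adjusted p = 0.00485). In MM1R it was at 27.3 and 28.2 CPM with Dex, and the log2 fold change was −0.05 (95% interval −0.21 to 0.11). The difference between the lines, 0.24 (95% interval 0.02 to 0.47), did not pass the adjusted test (adjusted p = 0.101). For the other 3 members the Dex values in MM1S were −0.04 (95% interval −0.17 to 0.09) for ELAVL1, −0.09 (−0.19 to 0.02) for HNRNPD and −0.05 (−0.18 to 0.08) for KHSRP.

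In MM1R no member passed the test for Dex, and none had an unadjusted p under 0.05, by edgeR. All 6 log2 fold changes were slightly negative, from −0.04 to −0.10. Over all genes edgeR called 0 of 14215 (0.0%), with 395 at an unadjusted p under 0.05, and DESeq2 also called 0. The difference between the lines in the Dex response passed the test for ZFP36 and ZFP36L2 and for none of the other 4.

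**Figure D2:**
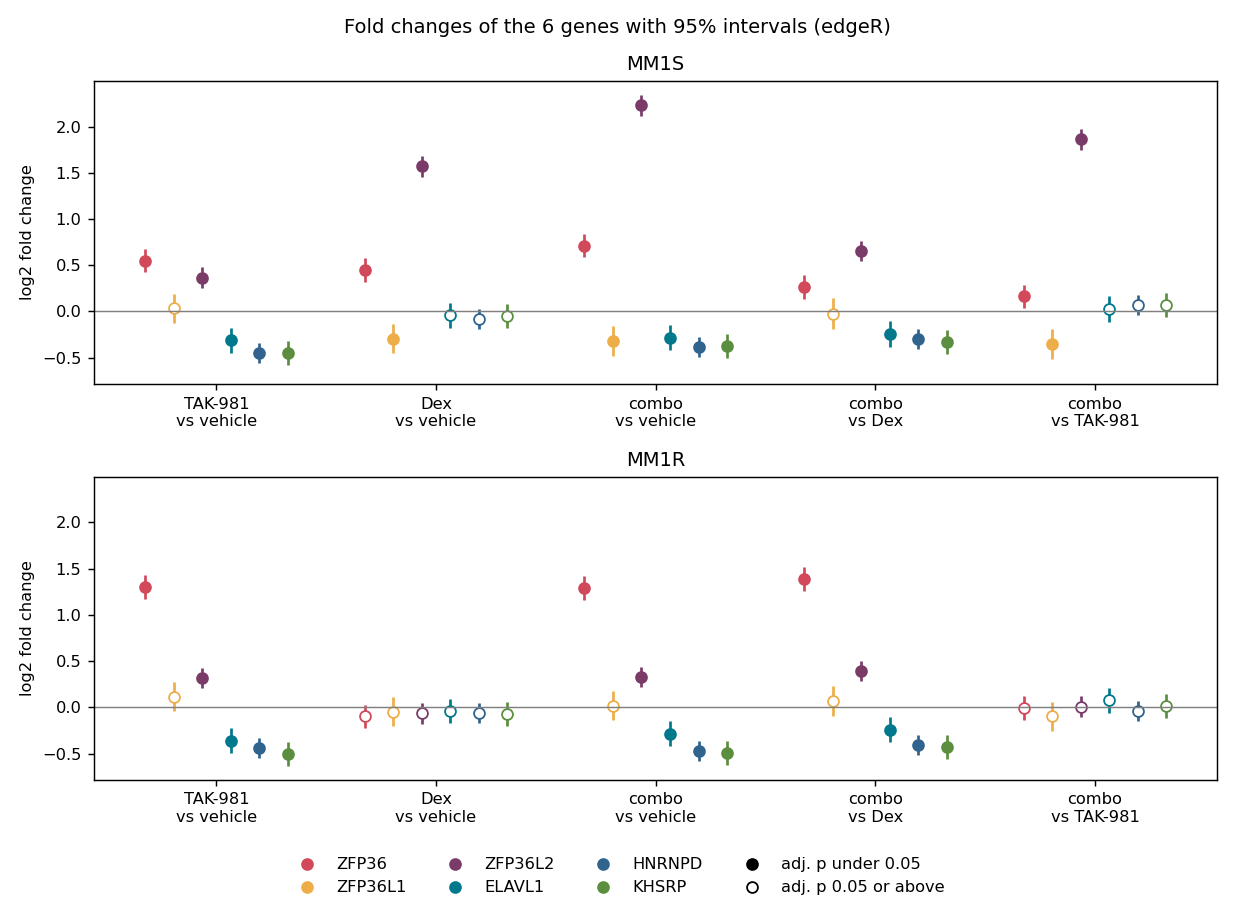
Log2 fold changes (vertical axis) of the 6 genes in 5 comparisons within MM1S (top) and MM1R (bottom), with 95% intervals from edgeR and filled points for an adjusted p under 0.05. ZFP36L2 reaches 2.23 in MM1S with combo and 0.33 in MM1R, ZFP36 reaches 1.30 with TAK-981 in MM1R, and all intervals of Dex against vehicle in MM1R cross 0.

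Combo brought ZFP36L2 to the highest level of any member. In MM1S it stood at 1331 and 1452 CPM, above 99.8% of the genes tested and apart from every other group. Against vehicle the log2 fold change was 2.23 (standard error 0.0546, adjusted p = 1.77e-16), which is 4.69-fold, and against Dex alone it was 0.66 (0.0522, adjusted p = 8.63e-09). All 6 members passed the test for combo against vehicle in MM1S, 2 higher and 4 lower, beside 30.8% and 29.5% of all genes (60.3% in either direction), and in MM1R 2 rose and 3 fell, beside 24.8% and 26.7% (51.5%). The comparisons of combo with vehicle and with each single agent share the combo libraries.

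The combo libraries of MM1S held ZFP36 at 214 and 236 CPM, and those of MM1R at 335 and 343 CPM. Against Dex alone its log2 fold change was 0.27 in MM1S (adjusted p = 0.00149), while in MM1R it was 1.39 (adjusted p = 3.15e-12). Against TAK-981 alone it was 0.16 higher on the log2 scale in MM1S (adjusted p = 0.0443), a call that was lost in the fit of only the compared groups (0.18, adjusted p = 0.214), without the filter on low counts (0.16, adjusted p = 0.0880), without MM1S TAK-981 library 1 (0.13, adjusted p = 0.161) and without MM1S combo library 2 (0.09, adjusted p = 0.354). Leaving out any of 7 MM1R libraries also lost this call, at an unchanged 0.16 and an adjusted p from 0.0509 to 0.0629. In MM1R the value against TAK-981 alone was −0.01 (95% interval −0.13 to 0.12), and the libraries overlapped. The study reported that TAK-981 raised ZFP36 mRNA in both lines and that adding Dex raised it further. Here a further rise was called only in MM1S, and that call was lost in the fits named above.

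The joint action of the agents was tested as the interaction of TAK-981 with Dex, which is 0 on the log2 scale when the effects add up. In MM1S it was 0.29 for ZFP36L2 (standard error 0.0741, adjusted p = 0.0135), so combo exceeded the sum of the single effects. It was −0.29 for ZFP36 (standard error 0.0857, adjusted p = 0.0323), so combo fell short of the sum. Both rest on few libraries. For ZFP36L2 the call was lost in the fit of only the compared groups (0.34, adjusted p = 0.0793), without MM1S vehicle library 2 (0.27, adjusted p = 0.0585) and without MM1S combo library 2 (0.23, adjusted p = 0.0543). For ZFP36 it was lost with library size as the only scaling (−0.21, adjusted p = 0.0948), in the fit of only the compared groups (−0.23, adjusted p = 0.265), without MM1S vehicle library 1 (−0.23, adjusted p = 0.156), without MM1S TAK-981 library 2 (−0.25, adjusted p = 0.0713), without MM1S Dex library 2 (−0.26, adjusted p = 0.115) and without MM1S combo library 1 (−0.22, adjusted p = 0.148). Leaving out either MM1R vehicle or either MM1R combo library gave adjusted p from 0.0501 to 0.0505 at −0.29. Of all genes 14.9% were called in this test, 5.47% higher and 9.48% lower.

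ZFP36L1 with combo was at 27.6 and 26.8 CPM in MM1S, close to the Dex libraries and below the TAK-981 libraries. The log2 fold change was −0.32 against vehicle (adjusted p = 0.00183), −0.02 against Dex (95% interval −0.19 to 0.14) and −0.35 against TAK-981 (adjusted p = 0.00177, 0.0555 in the fit of only the compared groups). In MM1R its combo libraries, 30.7 and 27.4 CPM, were on both sides of the vehicle libraries. In both lines the 3 other binders were below vehicle with combo, at log2 fold changes of −0.28 and −0.28 (ELAVL1), −0.38 and −0.48 (HNRNPD) and −0.38 and −0.49 (KHSRP) in MM1S and MM1R. Against Dex alone they fell in both lines. For ELAVL1 that call, −0.24 in each line, was lost without MM1S combo library 1 (−0.18, adjusted p = 0.0696) and, in MM1R, without MM1R combo library 2 (−0.21, adjusted p = 0.0556).

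For combo against Dex, 2 members were higher and 3 lower in each line, beside 22.2% and 25.4% of all genes in MM1S (47.6% in either direction) and 23.1% and 25.3% in MM1R (48.4%). For combo against TAK-981 in MM1S, 2 were higher and 1 lower, beside 14.5% and 20.6% (35.1% in either direction). In MM1R no member passed this comparison or the interaction of TAK-981 with Dex, and none had an unadjusted p under 0.05. Over all genes edgeR and DESeq2 called 0 (0.0%) in both, with 214 and 400 genes at an unadjusted p under 0.05 by edgeR.

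Without treatment the difference between the lines did not pass the test for ZFP36 and ZFP36L2 and did for the other 4. MM1R against MM1S with vehicle gave log2 fold changes of 0.01 for ZFP36 (95% interval −0.11 to 0.14) and −0.05 for ZFP36L2 (−0.16 to 0.06). KHSRP was higher in MM1R by 0.47 (standard error 0.0616, adjusted p = 7.12e-06), ELAVL1 by 0.33 (0.0636, adjusted p = 0.000335) and HNRNPD by 0.25 (0.0512, adjusted p = 0.000573), each with both MM1R libraries above both MM1S libraries. ZFP36L1 was lower by 15.2% (log2 fold change −0.24, adjusted p = 0.0143). Its call was lost when any 1 of the 4 vehicle libraries was left out: at −0.25 (adjusted p = 0.0536) and −0.23 (0.0680) without MM1S vehicle library 1 and 2, and at −0.24 (0.0667) and −0.24 (0.0694) without MM1R vehicle library 1 and 2. The counts of 3 higher and 1 lower stand beside 25.6% and 22.6% of all genes (48.2% in either direction).

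Ordered by mean CPM over the 8 groups, ZFP36L2 ran from 274 (MM1R Dex) through MM1R vehicle, MM1S vehicle, MM1R TAK-981, MM1R combo, MM1S TAK-981 and MM1S Dex to 1391 CPM (MM1S combo). Among these neighbours only MM1R TAK-981 and MM1R combo overlapped in their libraries. ZFP36 ran from 130 CPM in MM1R Dex through vehicle of both lines, MM1S Dex, MM1S TAK-981 and MM1S combo to 339 and 341 CPM in MM1R combo and MM1R TAK-981. Its overlapping neighbours were the vehicle groups of the 2 lines and the 2 highest groups. ZFP36L1 covered only 27.2 to 34.6 CPM, with overlap at 5 of 7 steps. ELAVL1 and KHSRP were lowest in MM1S TAK-981 (126 and 199 CPM) and highest in MM1R vehicle (197 and 376 CPM), as was HNRNPD (209 and 340 CPM).

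The summed level of the 3 family mRNAs per kb showed which member carried each response. In MM1S the sum rose from 167 ± 6.07 with vehicle to 227 ± 2.19 with TAK-981, 353 ± 4.08 with Dex and 512 ± 31.6 CPM per kb with combo (SD, n = 2), the last 3.06 times the vehicle mean. In MM1R it was 164 ± 1.44 with vehicle, 299 ± 0.385 with TAK-981, 155 ± 0.260 with Dex and 298 ± 0.609 CPM per kb with combo (SD, n = 2). The 2 lines began with almost the same composition: ZFP36L2 made up 48.1 ± 0.649% of the sum in MM1S vehicle and 47.4 ± 0.433% in MM1R vehicle. In MM1S combo its share was 73.6 ± 0.0416%, whereas in MM1R with TAK-981 it was 32.4 ± 0.370%. Shares of a sum are tied, so with little ZFP36L1 the ZFP36 share had to move against that of ZFP36L2. The ZFP36 share went from 46.9 ± 0.795% to 25.1 ± 0.150% in MM1S combo. In MM1R with TAK-981 it went from 48.3 ± 0.475% to 65.1 ± 0.448%. The level of ZFP36 itself rose in MM1S combo, from a mean of 78.5 to 129 CPM per kb. That of ZFP36L2 rose in MM1R with TAK-981, from a mean of 77.7 to 96.9 CPM per kb. ZFP36L1 stayed at or under 5.11% in every library. With the longest transcript as the length, the ZFP36L2 share moved by less than 1 percentage point in every group.

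**Figure D3:**
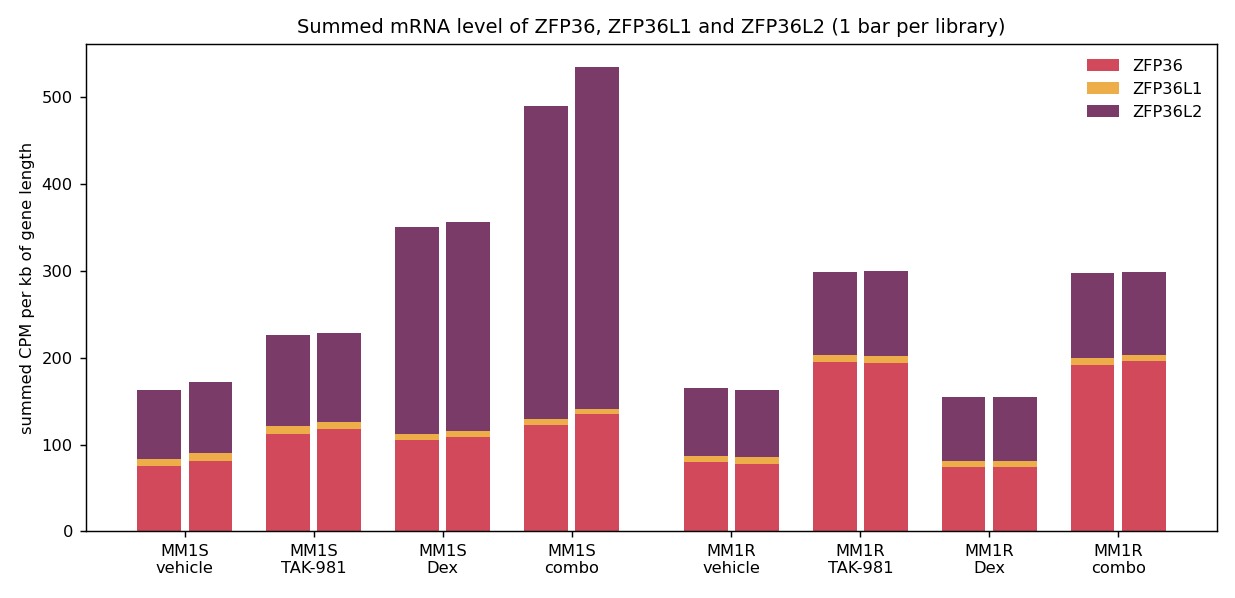
Summed level of ZFP36, ZFP36L1 and ZFP36L2 in CPM per kb of gene length (vertical axis from 0), 1 stacked bar per library, for the 4 treatments of MM1S and MM1R. The bars reach 490 and 535 CPM per kb in MM1S with combo, mostly ZFP36L2, and 299 and 300 CPM per kb in MM1R with TAK-981, mostly ZFP36.

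Over the 16 libraries the log2 CPM of ELAVL1 and KHSRP had a Pearson r of 0.99, KHSRP and HNRNPD 0.96 and ELAVL1 and HNRNPD 0.93. Between the family members r was 0.24 for ZFP36 and ZFP36L2, −0.01 for ZFP36 and ZFP36L1 and −0.45 for ZFP36L1 and ZFP36L2. These values describe 8 groups of 2 libraries that share line, treatment and library scaling. Among 9645 genes with a mean log2 CPM of at least 3, those most like ZFP36 were AMPD3 (r = 0.98), UBE2L6 (0.97) and GTPBP1 (0.97), and those most like ZFP36L2 were TAF8 (0.99), PRKCB (0.99) and PFKFB2 (0.99). ZFP36L1 was most like HLA-DRA (0.94), HLA-DMA (0.93) and MEX3C (0.92). HLA-DRA and HLA-DMA encode chains of the antigen presentation machinery. ELAVL1 was most like KHSRP (0.99), GNPTAB (0.98) and PAK1IP1 (0.98), KHSRP most like STIP1 (0.99), ELAVL1 (0.99) and GNPTAB (0.99), and HNRNPD most like COLGALT1 (0.99), BEND3 (0.99) and CRTAP (0.99).

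In a list headed other AU-rich element binders, YBX1 and HNRNPAB fell and ZC3H12A rose with TAK-981 in both lines. Whether each protein of the list, ZC3H12A among them, reads that element was not checked. Of its 31 genes 27 were tested. In MM1S 3 were higher and 10 lower, with a median log2 fold change of −0.10. In MM1R 5 were higher and 14 lower, with a median of −0.19. In MM1S these are 11.1% and 37.0% of the list, against 25.2% and 23.7% of all genes. In MM1R they are 18.5% and 51.9%, against 25.8% and 27.6%. The lower ones included YBX1, a cold shock domain protein (−0.69 in MM1S, −0.65 in MM1R), and HNRNPAB (−0.70 and −0.77), a relative of HNRNPD. ZC3H12A, the endonuclease Regnase-1, rose with TAK-981, in MM1S by 0.47 with an adjusted p of 3.74e-05 and in MM1R by 0.98 with an adjusted p of 6.40e-09. With Dex in MM1S it rose by 2.29 (standard error 0.0745, adjusted p = 4.05e-14), from 56.0 ± 0.916 to 273 ± 8.87 CPM (SD, n = 2), while the list had 5 higher and 8 lower and a median of −0.07. The 5 higher and 8 lower with Dex are 18.5% and 29.6% of the list, beside 20.8% and 21.5% of all genes. The 8 lower with Dex became 3 without MM1S vehicle library 1 and 5 without MM1S Dex library 2. The 3 higher with TAK-981 in MM1S became 6 without MM1S TAK-981 library 2. The 5 higher in MM1R became 3, 2 and 3 without MM1R vehicle library 1, MM1R vehicle library 2 and MM1R TAK-981 library 1, and 9 in the fit of only the compared groups. For ZC3H12A combo in MM1S was below Dex alone by 0.50 (adjusted p = 1.21e-05), where ZFP36L2 was above it. The neuronal ELAVL2, ELAVL3 and ELAVL4 and also ZC3H12D had at most 7 counts in any library and were not tested.

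The deadenylation machinery, through which ZFP36 proteins act, showed no common direction. Of 19 genes, 5 were higher and 5 lower with TAK-981 in MM1S (median −0.08), 6 and 6 in MM1R (median −0.01), and 3 and 2 with Dex in MM1S (median 0.02). These TAK-981 shares (26.3% each way in MM1S, 31.6% in MM1R) stand near those of all genes, 25.2% and 23.7% for MM1S, 25.8% and 27.6% for MM1R. The Dex counts were smaller shares of the list in both directions than the 20.8% higher and 21.5% lower of all genes. The 3 that rose with the smallest adjusted p in each line were BTG1 (0.61 in MM1S, 0.65 in MM1R), BTG2 (0.72, 0.49) and TOB1 (0.31, 0.31), which encode adaptors of CCR4-NOT. CNOT9, a subunit of the complex, fell in both (−0.34, −0.34), as did the poly(A) binding protein gene PABPC1 (−0.36, −0.37). With TAK-981 in MM1S the count higher was 2 in the fit of only the compared groups, where TOB1 was lost (0.27, adjusted p = 0.0543), and 3 without MM1S vehicle library 1, and the count lower was 8 with the replicate block. With Dex the 2 lower became 4 with the block or without MM1S Dex library 1 and 1 without MM1S Dex library 2.

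Decapping and exosome genes, which complete the decay, had 3 higher and 10 lower of 23 with TAK-981 in MM1R (median −0.11) and 4 higher and 7 lower in MM1S (median −0.04). The lower shares, 43.5% and 30.4%, stand beside 27.6% and 23.7% of all genes, and the counts higher beside 25.8% and 25.2%. EXOSC8 fell by 0.93 in MM1S, with an adjusted p of 3.83e-06, and in MM1R it fell by 0.87, with an adjusted p of 3.47e-06, and EXOSC9 fell by 0.60 and 0.73. Both are structural subunits of the exosome. EXOSC2 was also lower in both lines. EXOSC7 went the other way in MM1S, at 37.4 ± 5.86 CPM with TAK-981 against 29.5 ± 2.55 CPM with vehicle (SD, n = 2). The decapping cofactor DCP1B rose by 0.51 in each line. DDX6 was also higher in both lines, and XRN1 was higher in MM1R. With Dex in MM1S 4 were higher and 5 lower (median 0.07). These are 17.4% and 21.7% of the list, beside 20.8% and 21.5% of all genes. The decapping enzyme DCP2 fell by 0.76 (adjusted p = 9.18e-08). EXOSC8 and EXOSC9 were also lower with Dex, while EXOSC5 and EXOSC7 were higher. With TAK-981 in MM1S the 4 higher became 1 in the fit of only the compared groups and 2 without MM1S vehicle library 2. With Dex the 4 higher became 7 with the block, 7 without either MM1S TAK-981 library and 8 without MM1S Dex library 1, and the 5 lower became 3 without MM1S vehicle library 1 or MM1S Dex library 2.

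Genes of the p38, MK2, 14-3-3 and PP2A list, whose proteins set the phosphorylation of ZFP36, had 4 higher and 9 lower of 18 with TAK-981 in MM1S (median −0.17) and 3 higher and 10 lower in MM1R (median −0.23). These are 22.2% and 50.0% of the list in MM1S and 16.7% and 55.6% in MM1R, against 25.2% and 23.7%, and 25.8% and 27.6%, of all genes. The 14-3-3 genes YWHAH (−1.07 in MM1S, −0.97 in MM1R) and YWHAQ (−0.71, −0.77) fell in both. The p38 gene MAPK13 was also lower in both lines, at a mean of 108 against 141 CPM with vehicle in MM1S and 81.8 against 144 CPM in MM1R. The phosphatase genes DUSP1 (0.75, 0.72) and DUSP10 (0.99, 1.40), which act on p38, rose in both, as did the p38 activator MAP2K6 (0.87, 1.06). With Dex in MM1S 6 were higher and 5 lower (median 0.05). These are 33.3% and 27.8% of the list, beside 20.8% and 21.5% of all genes. DUSP10 rose by 1.11 (adjusted p = 2.78e-07), DUSP1 by 0.48 (adjusted p = 0.000622), and MAPKAPK2, which encodes MK2, by 0.58 (adjusted p = 1.75e-05), whereas MAP2K6 fell by 1.08 (adjusted p = 1.94e-05). MAPK11 was also higher with Dex, at a mean of 6.12 against 1.98 CPM, and YWHAQ and YWHAG were lower.

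Messenger RNAs known to carry AU-rich elements moved both ways. Of a list of 40, 29 were tested, and TNF, IL6, CXCL8 and 8 others had at most 18 counts in any library. With TAK-981, 9 were higher and 10 lower in MM1S (median −0.15) and 10 higher and 8 lower in MM1R (median 0.15). These are 31.0% and 34.5% of the 29 in MM1S and 34.5% and 27.6% in MM1R, beside 25.2% and 23.7%, and 25.8% and 27.6%, of all genes. The inhibitor of apoptosis gene BIRC3 rose by 1.89 and 2.12 and the survival gene MCL1 by 0.56 and 0.78, while CCNE1 (cyclin E) fell by 1.22 and 1.03. With Dex in MM1S 5 were higher and 13 lower (17.2% and 44.8%, beside 20.8% and 21.5% of all genes; median −0.27 beside 0.01). The chemokine gene CCL3 fell by 2.33 (standard error 0.0853, adjusted p = 2.66e-13), VEGFA fell by 2.30 and the cytokine subunit gene IL23A decreased by 1.56, whereas CCND3 (cyclin D3) rose by 1.81 (adjusted p = 5.53e-12). In MM1R 0 of the 29 were called with Dex by edgeR. The 10 lower with TAK-981 in MM1S became 6 without MM1S vehicle library 1 or MM1S TAK-981 library 1, the 8 lower in MM1R became 5 without either MM1R vehicle library or MM1R TAK-981 library 1, and the 5 higher with Dex became 3 without MM1S vehicle library 1 or MM1S Dex library 2.

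**Figure D4:**
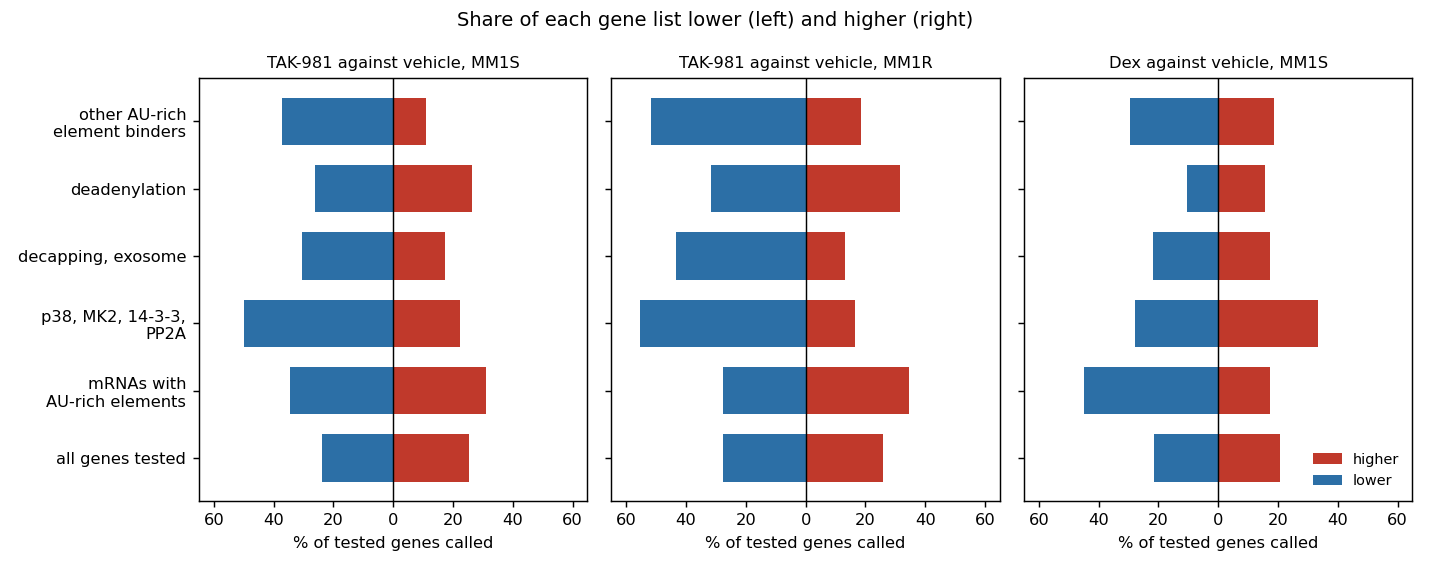
Share of the tested genes of 5 lists, and of all 14215 genes, called lower (blue, to the left) and higher (red, to the right) by edgeR in 3 comparisons, horizontal axis in percent. The p38, MK2, 14-3-3 and PP2A list has 50.0% and 55.6% lower with TAK-981 in MM1S and MM1R, and the mRNAs with AU-rich elements have 44.8% lower and 17.2% higher with Dex in MM1S.

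The study also followed cyclin D1 (gene CCND1) and E2F1, both at the protein level, beside the ZFP36 protein, and their mRNAs are given here. CCND1 was a low mRNA here, with 72 to 289 counts per library. In MM1S it was at 13.1 ± 0.612 CPM with vehicle, 10.6 ± 0.381 with TAK-981, 3.96 ± 0.321 with Dex and 4.73 ± 0.316 CPM with combo (SD, n = 2). With Dex CCND1 fell by 1.73 on the log2 scale (adjusted p = 1.22e-08). Its change with TAK-981 in MM1S was −0.31, with an adjusted p of 0.0393, and that in MM1R 0.08, with an adjusted p of 0.686. The call in MM1S was lost with DESeq2 (−0.33), in the fit of only the compared groups (−0.35), without MM1S vehicle library 1 (−0.26) or 2 (−0.36), without MM1S TAK-981 library 1 (−0.28) or 2 (−0.35) and without either MM1R combo library (−0.31). E2F1 fell with TAK-981 in both lines, at −1.59 in MM1S with an adjusted p of 1.76e-08 and −1.22 in MM1R with an adjusted p of 2.40e-07, and in MM1S combo E2F1 was at 5.53 ± 0.194 CPM against 70.6 ± 4.73 with vehicle (SD, n = 2). MYC fell with TAK-981 by 0.68 in MM1S and 0.56 in MM1R, and rose with Dex in MM1S by 0.39 (adjusted p = 5.53e-05).

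The heptamer shown above was also searched in the 3' UTRs of all genes tested. Of 12605 tested genes with an annotated 3' UTR, 3982 held at least 1 copy. With Dex in MM1S, 17.7% of these were higher and 27.7% lower, against 23.0% and 20.5% of the 8623 without it. Of the 718 genes with at least 3 copies, 93 were higher and 232 lower (32.3%). Genes with the heptamer had longer 3' UTRs (median 2377 against 649 bases), so the shares were also taken within 4 classes of 3' UTR length holding nearly equal numbers of genes. In each class fewer genes with the heptamer than without it were higher, and more were lower: in the longest class 19.0% against 25.9% higher and 28.2% against 22.0% lower, and in the shortest 16.7% against 20.7% and 22.5% against 19.1%. With combo against vehicle in MM1S the shares with and without the heptamer were closer, at 30.2% against 29.9% higher and 32.9% against 31.0% lower, and with combo against Dex, which shares the Dex libraries, 25.2% against 20.2% were higher and 23.5% against 29.2% lower. With TAK-981 in MM1S, 24.2% of genes with the heptamer were higher and 27.4% lower, against 25.8% and 24.6% without it. In MM1R, 28.2% were higher and 26.3% lower, against 23.8% and 31.5%. Within the length classes of MM1R the share higher was lower with the heptamer in the 2 shortest (20.3% against 21.2% and 22.7% against 23.0%) and higher in the 2 longest (28.0% against 25.4% and 30.8% against 29.6%), while the share lower was smaller with it in all 4. A skew of this kind was also present without a drug. For MM1R against MM1S with vehicle, 21.7% of genes with the heptamer were higher and 27.4% lower, against 30.3% and 20.2% without it. Of the genes with at least 3 copies, 17.7% were higher and 35.2% lower there. The skew was thus not particular to Dex, and the 2 comparisons share the MM1S vehicle libraries. All these shares are descriptions over genes and carry no test.

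**Figure D5:**
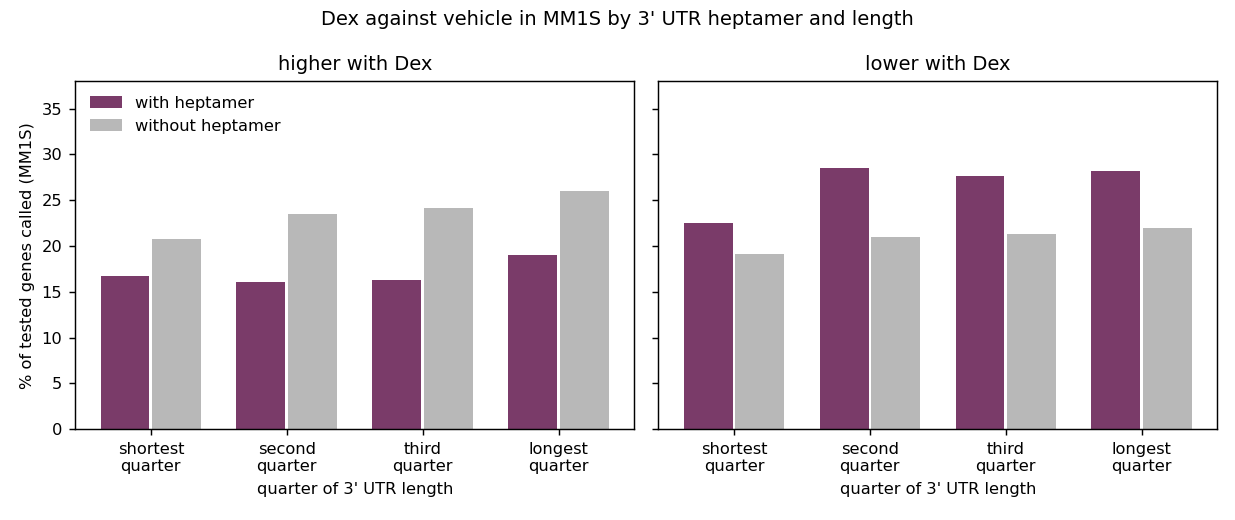
Share of tested genes (vertical axes, percent) called higher (left) or lower (right) with Dex in MM1S by edgeR, for genes with (purple) and without (grey) the heptamer in the 3' UTR, in 4 classes of 3' UTR length from shortest to longest (horizontal axes). In every class the purple bar is below the grey one on the left and above it on the right, by 28.2% against 22.0% lower in the longest class.

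Genes whose 3' UTR holds the miR-551b-3p seed match were counted in the same way, as a list made after the data were seen. Of the 169 tested, 47 were higher and 40 lower with TAK-981 in MM1S (27.8% and 23.7%) and 48 higher and 41 lower in MM1R (28.4% and 24.3%), near the shares of all genes tested. Their median log2 fold changes were 0.09 and 0.05, beside 0.04 and 0.00 over all genes.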

How the data were processed

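The authors deposited a table of raw integer counts per gene and library, with symbols, gene lengths and positions, and it was used as deposited. The submitters' processing notes list bcl2fastq 2.18.0.12, STAR 2.6.0, HTSeq 0.6.0, edgeR 3.28.1 and the build hg19. Whether strand was used in counting is not given in the sources used here. Columns of the table were assigned to samples from the titles GEO gives.

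Genes kept by filterByExpr (14215 of 23354) were scaled with TMM and fitted with 1 term per group over the 16 libraries by the robust quasi-likelihood fit of edgeR (8 residual degrees of freedom). The 15 contrasts were tested with its F test and Benjamini-Hochberg adjustment over all genes tested, with a threshold of 0.05. Log2 fold changes have standard errors and 95% intervals from that fit. Log2 CPM used a prior count of 2. Precision rests on the counts and on the spread between libraries beyond sampling noise. Members had 445 to 26403 counts in a library.

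The 6 members, the 5 gene lists, the comparisons and the rule for named genes were chosen with earlier results of these data known. The lists were written from general knowledge. Genes could be named from each if among the 3 higher or 3 lower with the smallest adjusted p (TAK-981 in MM1S, TAK-981 in MM1R, Dex in MM1S). Not every such gene is printed. Named as well were CCND1, E2F1 and MYC, and the 3 genes with the highest correlation to each member. DUSP1 under Dex and ZC3H12A under combo were chosen after their values were seen. Sequences come from GENCODE 29 transcripts (GRCh38, 1 transcript per gene by longest coding sequence, then longest 3' UTR) and, for the miRNA, RefSeq.

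The other settings tried were RLE scaling, scaling by total counts alone, omission of the filter, a replicate block within each line, a fit of only the compared groups, DESeq2, leaving out each library in turn and, for levels per kb, the longest transcript. On simulated counts for TAK-981 against vehicle in MM1S (14215 genes), the fit called 94% of 100 genes changed 1.5-fold, 99% of 100 changed 2-fold, and 11 unchanged genes. The changed genes were drawn from those with a mean of at least 100 counts, and no other difference between groups was put in. In the data 49.0% of genes were called in this comparison, so these figures need not carry over. The software was edgeR 4.0.16 and DESeq2 1.42.0 under R 4.3.3.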

Additional observations from a re-analysis of the deposited data

Results flagged for a closer look

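The following 5 results differed between groups by a test of the difference itself. The response of ZFP36 to TAK-981 was larger in MM1R than in MM1S, with an interaction of 0.75 (95% interval 0.57 to 0.93, edgeR adjusted p = 7.70e-05). The responses to Dex were smaller in MM1R for ZFP36, at −0.55 (95% interval −0.73 to −0.37, adjusted p = 9.79e-05), and for ZFP36L2, at −1.64 (95% interval −1.79 to −1.48, adjusted p = 1.55e-11). These 3 passed the test in every leave-one-out fit and under every other setting. Within MM1S the interaction of TAK-981 with Dex was −0.29 for ZFP36 (adjusted p = 0.0323) and 0.29 for ZFP36L2 (adjusted p = 0.0135), of opposite sign, and both calls were lost under some settings.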

How the results depend on the processing

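Of the member results called in the report, 270 kept their direction and call under the other settings and 6 lost the call, and with 1 library left out at a time 711 kept it and 25 lost it. None of these changed direction. The 6 were ZFP36 in combo against TAK-981 in MM1S without the filter on low counts (0.16) and in the fit of only the compared groups (0.18), the interaction of TAK-981 with Dex in MM1S for ZFP36 with library size only (−0.21) and only the compared groups (−0.23) and for ZFP36L2 with only the compared groups (0.34), and ZFP36L1 in combo against TAK-981 in MM1S with only the compared groups (−0.33). Library size as the only scaling called HNRNPD in that interaction (0.23, adjusted p = 0.0457).

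The replicate numbers do not pair the libraries by the labels. The difference in log2 CPM between libraries 1 and 2 of a group was correlated over 14215 genes with that of another group. The r of these differences lay between 0.02 and 0.26 for pairs of MM1S groups. For pairs of MM1R groups it lay between −0.01 and 0.08. Groups of different lines gave r between −0.01 and 0.19, the highest for MM1S Dex with MM1R Dex. The replicate block moved the genes called for the interaction of TAK-981 with Dex in MM1S from 2125 to 3579 and for the interaction of line with TAK-981 from 592 to 2061, and changed no call of a member. Fitting only the compared groups left 734 genes and 0 members for the former, 1 member in combo against TAK-981 in MM1S, and 5 genes for combo against TAK-981 in MM1R. Without the filter on low counts the genes called were 30 for Dex in MM1R, 9 for combo against TAK-981 in MM1R, 19 for the interaction of TAK-981 with Dex in MM1R and 1313 for the interaction of line with TAK-981. The cause was not tested. With 1 library left out, the genes called ran from 1066 to 3759 for the interaction of TAK-981 with Dex in MM1S (members 1 to 2), from 205 to 2329 for the interaction of line with TAK-981, and from 0 to 1 for Dex, combo against TAK-981 and the interaction of TAK-981 with Dex in MM1R.

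Values that did not pass the test changed sign as follows. With library size only these were ZFP36 between the lines with vehicle (−0.050), ZFP36L1 with TAK-981 in MM1S (−0.015) and in the interaction of TAK-981 with Dex in MM1S (0.014), and, in the interaction of line with Dex, ELAVL1 (0.041) and KHSRP (0.022). ELAVL1 in the last was also 0.00060 with RLE, 0.00062 with DESeq2 and 0.0034 with only the compared groups. With 1 library left out these ranges crossed 0. For combo against TAK-981 in MM1R they were those of ZFP36 (−0.024 to 0.0079), ZFP36L2 (−0.012 to 0.028) and KHSRP (−0.012 to 0.035). For MM1R against MM1S with vehicle it was that of ZFP36 (−0.039 to 0.070). For TAK-981 against vehicle in MM1S it was that of ZFP36L1 (−0.015 to 0.082). For combo against Dex in MM1S it was that of ZFP36L1 (−0.044 to 0.0037). For combo against vehicle in MM1R it was that of ZFP36L1 (−0.068 to 0.096). For combo against Dex in MM1R it was that of ZFP36L1 (−0.020 to 0.14). For the interaction of TAK-981 with Dex in MM1R they were those of ZFP36L1 (−0.14 to 0.028) and HNRNPD (−0.014 to 0.064). For combo against TAK-981 in MM1S it was that of ELAVL1 (−0.049 to 0.11). For the interaction of TAK-981 with Dex in MM1S it was that of ELAVL1 (−0.0092 to 0.15). For the interaction of line with TAK-981 they were those of ELAVL1 (−0.13 to 0.031) and KHSRP (−0.12 to 0.014). For the interaction of line with Dex they were those of ELAVL1 (−0.030 to 0.026) and KHSRP (−0.079 to 0.039). For Dex against vehicle in MM1S it was that of KHSRP (−0.11 to 0.012). For TAK-981 against vehicle in MM1R it was that of CCND1 (−0.12 to 0.32).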
